A study of Mus musculus with 16 samples.

Results

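Myosin-binding proteins C and myosin light chains are the proteins that decorate the myosin heads and rods of the sarcomere. The 8 genes described here are Mybpc1, Mybpc2, Mybpc3, Mybphl, Myl2, Myl3, Myl4 and Mylk3, out of 56953 genes in the count table of a mouse left ventricle RNA-seq study. They were selected on count results of these same 16 libraries, so their levels, fold changes and adjusted p-values are descriptions of the libraries and not independent evidence. Of the 8 genes, 7 passed the filter on low counts and were tested among 18662 genes. Mybpc1 did not pass, and Mybphl passed on the counts of the WT libraries.

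The study crossed genotype with a virus in mice of both sexes on the Bl6J background, with 4 mice and 1 library per mouse in each of 4 groups. Every mouse received 1e12 viral genomes of AAV9 through a tail vein when 4 weeks old, and the left ventricles were collected 12 weeks after that, at an age of 16 weeks. WT Ctr mice were wild type and received the control construct pCAG-iCre-T2A-eGFP, which expresses Cre recombinase and green fluorescent protein from the CAG promoter. WT Tnpo3 mice were wild type and received the Tnpo3 cDNA. P635L Ctr mice were homozygous for the RBM20 mutation P635L and received the control construct, and P635L Tnpo3 mice had the same genotype and received the Tnpo3 cDNA. No group without a virus is described, the promoter of the Tnpo3 virus is not given, and Cre was carried by the control groups only. RBM20 is a splicing factor of heart muscle, and TNPO3 is a nuclear import receptor for proteins rich in serine and arginine.

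Library totals ran from 28493249 to 85922669 counts. Markers of ventricular cardiomyocytes were abundant in every library, with a summed level of 7 genes between 40770 and 67310 CPM (library-size scaled counts with TMM factors). The gene ENSMUSG00000119584 took up between 19.96% and 22.65% of counts in 3 libraries (WT Ctr 2, WT Ctr 4 and WT Tnpo3 4), and at most 5.3% in the rest. Xist exceeded the Y-linked genes in 3 WT libraries and in 0 of the 8 P635L libraries. Sex is not given per mouse, and by these sex-linked genes the sexes were not balanced between the genotypes. Fits without those 3 libraries are among the alternatives. Tnpo3 itself lay between 41.6 and 49.4 CPM in the libraries with the control virus and between 231 and 723 CPM in those with the Tnpo3 virus.

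Myosin-binding protein C binds the thick filament in stripes on both sides of the sarcomere's centre and restrains myosin heads, and phosphorylation of the cardiac form eases that restraint. The mouse has a slow skeletal form (Mybpc1), a fast skeletal form (Mybpc2) and a cardiac form (Mybpc3), and the normal ventricle relies on the cardiac form. Each myosin head also carries a pair of light chains, an essential one (Myl3 in the ventricle, Myl4 in the atrium) and a regulatory one (Myl2 in the ventricle). Cardiac myosin light chain kinase, encoded by Mylk3, phosphorylates the regulatory light chain.

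The sequences below are the 250 bases before the RefSeq start of Mybpc2, Mybpc3 and Myl3 (GRCm38.p6), the pair whose balance was compared and the light chain that differed most among the members. They lie at chr7:44524670-44524919 (minus strand) for Mybpc2, at chr2:91117894-91118143 (plus strand) for Mybpc3 and at chr9:110763428-110763677 (plus strand) for Myl3. Each is written 5′ to 3′ on the strand of its gene, and capitals mark every match to the motifs that were searched.
Mybpc2: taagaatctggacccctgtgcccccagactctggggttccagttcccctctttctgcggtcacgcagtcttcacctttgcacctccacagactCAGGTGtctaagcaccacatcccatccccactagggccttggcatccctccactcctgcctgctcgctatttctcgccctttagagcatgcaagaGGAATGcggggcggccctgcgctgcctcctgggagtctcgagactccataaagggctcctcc
Mybpc3: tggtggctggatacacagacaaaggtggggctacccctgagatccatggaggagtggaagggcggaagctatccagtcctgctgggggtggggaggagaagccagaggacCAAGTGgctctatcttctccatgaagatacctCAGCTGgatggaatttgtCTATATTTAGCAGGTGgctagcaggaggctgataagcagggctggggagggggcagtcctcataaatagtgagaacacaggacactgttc
Myl3: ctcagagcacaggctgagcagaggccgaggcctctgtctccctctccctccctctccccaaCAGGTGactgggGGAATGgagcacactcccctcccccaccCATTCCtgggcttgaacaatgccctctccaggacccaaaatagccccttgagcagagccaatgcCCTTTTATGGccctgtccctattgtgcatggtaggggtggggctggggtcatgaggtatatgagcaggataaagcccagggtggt
Motifs were searched on both strands. They were the E-box CANNTG, the TATA box TATAAA, the M-CAT element CATTCC, the GATA element AGATAA, the MEF2 site and the CArG box. The Mybpc2 window held 1 E-box and 1 M-CAT element, 62 to 57 bases before the start. The Mybpc3 window held 3 E-boxes and 1 MEF2 site, 90 to 81 bases before the start, and the third E-box begins at the next base without overlap. The Myl3 window held 1 E-box, 2 M-CAT elements and 1 CArG box, 85 to 76 bases before the start. Among 32851 windows of the same length in the RefSeq table, 66.2% held an E-box, 12.6% an M-CAT element, 2.9% a MEF2 site and 1.5% a CArG box. These matches describe the letters of the windows only.

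Mybpc2, the fast skeletal form, was the member that rose in P635L hearts. Mybpc2 (ENSMUSG00000038670, chromosome 7, 44151123 to 44174080, minus strand, GRCm39) was at 18.0, 18.2, 21.6 and 23.4 CPM in the WT Ctr libraries. It was at 307, 228, 339 and 280 CPM in P635L Ctr. The 4 P635L Ctr libraries all lay far above the 4 WT Ctr libraries, with no overlap. The mean rose from 20.3 ± 2.65 to 288 ± 47.3 CPM (SD, n = 4 per group), which is 14.2 times higher, and the fitted change was 3.83 on the log2 scale (SE 0.33, edgeR adjusted p = 1.3e-06). In bulk tissue, a change in the number of cells of a type and a change in RNA per cell cannot be told apart.

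With the Tnpo3 virus, Mybpc2 in P635L hearts was lower but did not reach the WT Ctr level. P635L Tnpo3 replicates 1 to 4 were at 55.6, 43.4, 67.0 and 160 CPM, a mean of 81.5 ± 53.3 CPM (SD, n = 4). All 4 lay below the lowest P635L Ctr library and above the highest WT Ctr library, and replicate 4 stood well above the other three. The log2 fold change was -1.82 against P635L Ctr (SE 0.30, edgeR adjusted p = 0.00345) and 2.00 against WT Ctr (SE 0.31, edgeR adjusted p = 0.00164). These comparisons share the P635L Tnpo3 libraries. Without replicate 4 the mean was 55.3 ± 11.8 CPM (SD, n = 3), and the log2 fold changes were -2.38 (edgeR adjusted p = 5.69e-07) and 1.45 (edgeR adjusted p = 0.000146). Replicate 4 also had the lowest Tnpo3 level of its group, 234 CPM against 359, 723 and 543 CPM in replicates 1 to 3, and whether the levels are linked was not tested. Without the 3 libraries rich in ENSMUSG00000119584, the difference from WT Ctr was 2.08 and no longer passed (edgeR adjusted p = 0.0622).

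In WT hearts the Tnpo3 virus gave Mybpc2 levels of 18.4, 14.9, 15.5 and 19.3 CPM, which overlap those of WT Ctr. The mean was 17.0 ± 2.14 CPM (SD, n = 4), a difference of -0.26 from WT Ctr on the log2 scale (SE 0.30, edgeR adjusted p = 1). The effect of the virus differed between genotypes by -1.56 on the log2 scale (SE 0.42), which did not pass (edgeR adjusted p = 0.126). It passed in 3 of 24 alternatives, among them DESeq2 (-1.58, adjusted p = 0.00643) and the fit without P635L Tnpo3 replicate 4 (-2.13, edgeR adjusted p = 0.000163). In order of level, P635L Ctr was highest, then P635L Tnpo3, then WT Ctr and WT Tnpo3, and the last pair overlap. Gm44646, on the other strand, shares 192 exonic bases with Mybpc2 and was at 0.03 to 0.873 CPM, and the strand setting of the counting is not given in the sources used here.

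**Figure D1:**
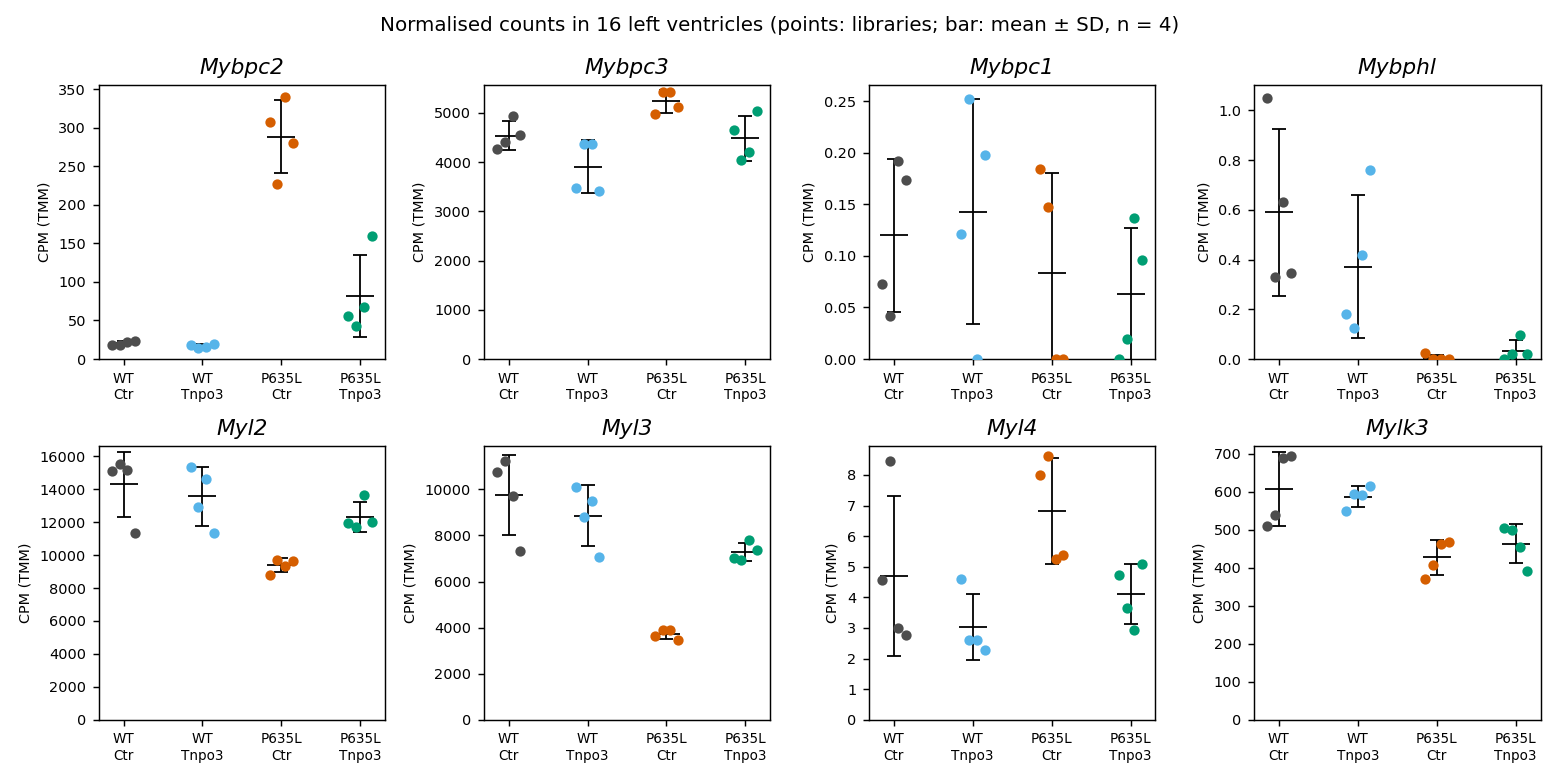
Normalised counts (y axis, CPM) of the 8 genes in the 4 groups (x axis), with points for libraries and bars for the mean ± SD (n = 4), cut at 0. Mybpc2 lies at 228 to 339 CPM in P635L Ctr and at 14.9 to 23.4 CPM in the WT groups, while Myl3 lies at 3467 to 3903 CPM in P635L Ctr and at 6955 CPM or more elsewhere.

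Mybpc3, the cardiac form, kept a high level in every group. Mybpc3 (ENSMUSG00000002100, chromosome 2, 90948489 to 90966861, plus strand, GRCm39) was at 4270, 4405, 4948 and 4543 CPM in WT Ctr and at 4971, 5425, 5429 and 5121 CPM in P635L Ctr. The lowest P635L Ctr library lay just above the highest WT Ctr library. The means were 4542 ± 293 and 5236 ± 228 CPM (SD, n = 4 each), and the log2 fold change of 0.21 (SE 0.12) did not pass (edgeR adjusted p = 0.28). With library totals less ENSMUSG00000119584 in place of TMM factors it was 0.34 (edgeR adjusted p = 0.0421). P635L Tnpo3 libraries were at 4646, 4041, 4205 and 5036 CPM, overlapping both other groups, with log2 fold changes of -0.23 against P635L Ctr (edgeR adjusted p = 0.336) and -0.02 against WT Ctr (edgeR adjusted p = 0.951). The WT Tnpo3 libraries were at 3468, 4364, 4374 and 3405 CPM, and their log2 fold change against WT Ctr was -0.22 (edgeR adjusted p = 1).

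The balance of Mybpc2 to Mybpc3 moved with Mybpc2. Scaled by exonic length, Mybpc2 made up 0.484%, 0.474%, 0.50% and 0.592% of the summed levels of Mybpc1, Mybpc2 and Mybpc3 in the WT Ctr libraries. Its share was 6.65%, 4.61%, 6.72% and 5.93% in P635L Ctr, above every other library. P635L Tnpo3 replicates 1 to 4 had shares of 1.36%, 1.22%, 1.80% and 3.54%, with replicate 4 again nearest to P635L Ctr. WT Tnpo3 libraries had 0.608%, 0.392%, 0.406% and 0.648%. The P635L Tnpo3 libraries lay between the P635L Ctr and the WT libraries without overlap, and the WT groups overlapped.

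The mean shares were 0.512 ± 0.0538% in WT Ctr, 0.513 ± 0.133% in WT Tnpo3, 5.98 ± 0.977% in P635L Ctr and 1.98 ± 1.07% in P635L Tnpo3 (SD, n = 4 each). Per length, the median ratio of Mybpc3 to Mybpc2 was 202 in WT Ctr, 63.4 in P635L Tnpo3 and 15.0 in P635L Ctr. The cardiac form therefore remained the main one in every library. The log2 ratio of Mybpc2 to Mybpc3 was 3.61 higher in P635L Ctr than in WT Ctr (pooled SD 0.215), and 1.77 lower in P635L Tnpo3 than in P635L Ctr (difference -1.77, pooled SD 0.533). Between the WT groups the difference was -0.03 (pooled SD 0.289). Without P635L Tnpo3 replicate 4 the mean share of that group was 1.46 ± 0.304% (SD, n = 3). The ratio has no p-value here, because its genes were chosen with their levels known.

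**Figure D2:**
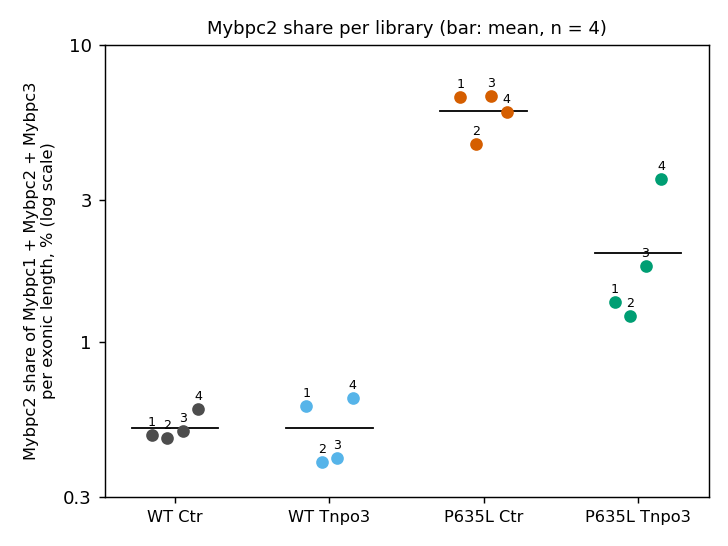
Share of Mybpc2 in the summed levels of Mybpc1, Mybpc2 and Mybpc3 per exonic length (y axis, percent, log scale) for each library in the 4 groups (x axis), with replicate numbers beside the points and the group mean as a bar. P635L Ctr lies between 4.61% and 6.72%, P635L Tnpo3 between 1.22% and 3.54%, and both WT groups below 0.65%.

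Mybpc1, the slow skeletal form, was near the limit of detection. Mybpc1 (ENSMUSG00000020061, chromosome 10, 88354141 to 88441014, minus strand, GRCm39) had 16 counts over the 4 WT Ctr libraries, 20 in WT Tnpo3, 22 in P635L Ctr and 13 in P635L Tnpo3. Its share of the 3 genes per length was at most 0.00532% in any library. A difference between groups was not detectable at this depth.

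Mybphl, a myosin-binding protein H-like gene known from the atrium and the conduction system, was low in WT hearts and almost absent from P635L hearts. Mybphl (ENSMUSG00000068745, chromosome 3, 108272227 to 108287373, plus strand, GRCm39) was at 1.05, 0.33, 0.63 and 0.348 CPM in WT Ctr, a total of 72 counts. In P635L Ctr a single count was found, in replicate 1, and the other 3 libraries had 0. The 2 groups do not overlap. From the summed counts the WT Ctr level was 138 times that of P635L Ctr, with an exact 95% interval of 23.95 to 5515 that covers counting error only. The fitted log2 fold change was -6.34 (SE 1.03, edgeR adjusted p = 0.000366) and depends on the small prior count.

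P635L Tnpo3 libraries held 7 Mybphl counts in all, at levels of 0 to 0.0973 CPM. WT Ctr was 16.3 times higher (95% interval 7.54 to 42.1, counting error only), and the fitted change was -3.96 on the log2 scale (SE 0.83, edgeR adjusted p = 0.0117). Against P635L Ctr the log2 fold change of 2.38 (SE 1.22) did not pass (edgeR adjusted p = 0.311). Leaving out P635L Tnpo3 replicate 2 or 4 ended the call against WT Ctr (edgeR adjusted p = 0.0602 and 0.0601). WT Tnpo3 libraries were at 0.182, 0.126, 0.419 and 0.76 CPM and overlapped WT Ctr (log2 fold change -0.68, edgeR adjusted p = 1). Of the atrial marker genes, Myl7, Sln and Bmp10 were at or below 1.43 CPM in every library. Mean Myl7 was 0.226 ± 0.276 CPM in WT Ctr, 0.0718 ± 0.0767 in P635L Ctr and 0.105 ± 0.037 in P635L Tnpo3 (SD, n = 4 each). In the same order, mean Sln was 0.331 ± 0.473, 0.00471 ± 0.00942 and 0.0122 ± 0.0244 CPM. Mean Bmp10 was 0.0176, 0 and 0.0588 CPM. Myl7 and Sln were thus lower in both P635L groups, like Mybphl, but at very low levels with a wide spread in WT Ctr. Other markers of the list were higher, such as Kcnj3 at 16.2 to 65.1 CPM and Stard10 at 17.8 to 44.6 CPM. These higher markers did not move together: from WT Ctr to P635L Ctr, mean Dkk3 rose from 3.55 to 17.2 CPM and mean Kcnj3 fell from 41.2 to 17.9 CPM. The summed level of 8 atrial markers was 93.9 to 113 CPM in WT Ctr, 98.5 to 117 CPM in WT Tnpo3, 74.6 to 88.0 CPM in P635L Ctr and 71.4 to 84.0 CPM in P635L Tnpo3. No atrial marker was at 0 in all libraries, and the part of atrial tissue in the Mybphl result was not tested. Gm12522 shares 89 exonic bases with Mybphl on the other strand and was at 0 to 0.21 CPM.

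Myl3, the essential light chain of the ventricle, fell in P635L hearts and was higher again with the Tnpo3 virus. Myl3 (ENSMUSG00000059741, chromosome 9, 110570929 to 110598866, plus strand, GRCm39) was at 10740, 11240, 9733 and 7339 CPM in WT Ctr. It was at 3616, 3903, 3896 and 3467 CPM in P635L Ctr. Every P635L Ctr library lay below every library of the other groups. The mean went from 9763 ± 1733 to 3720 ± 215 CPM (SD, n = 4 per group), and the fitted log2 fold change was -1.39 (SE 0.15, edgeR adjusted p = 3.09e-06).

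P635L Tnpo3 libraries were at 7003, 6955, 7818 and 7361 CPM of Myl3. Their mean of 7284 ± 399 CPM (SD, n = 4) was 1.96 times that of P635L Ctr, and the fitted log2 fold change was 0.97 (SE 0.14, edgeR adjusted p = 0.000838). Replicate 4, which stood apart in Mybpc2, lay within the range of the others for Myl3. Against WT Ctr the groups overlapped at WT Ctr replicate 4, and the log2 fold change of -0.42 (SE 0.14) did not pass (edgeR adjusted p = 0.119). It passed without the 3 libraries with high Xist, at -0.50 (edgeR adjusted p = 0.00684), and without WT Ctr replicate 4 alone, at -0.54 (edgeR adjusted p = 0.0316). WT Tnpo3 libraries were at 10110, 8804, 9488 and 7051 CPM and overlapped WT Ctr, with a log2 fold change of -0.14 (edgeR adjusted p = 1). The effect of the virus on Myl3 was larger in P635L than in WT hearts by 1.11 on the log2 scale (SE 0.20, edgeR adjusted p = 0.0128). Pth1r, on the other strand, shares 95 exonic bases and was at 7.3 to 14.3 CPM.

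Myl2, the regulatory light chain of the ventricle and the most abundant member, fell by a smaller amount. Myl2 (ENSMUSG00000013936, chromosome 5, 122239014 to 122251535, plus strand, GRCm39) was at 15130, 15550, 15180 and 11370 CPM in WT Ctr and at 8807, 9703, 9358 and 9669 CPM in P635L Ctr. The groups do not overlap, although WT Ctr replicate 4 was much lower than the other 3. The log2 fold change was -0.61 (SE 0.13, edgeR adjusted p = 0.00424). P635L Tnpo3 libraries were at 11960, 11690, 13680 and 11990 CPM, all above P635L Ctr, but the log2 fold change of 0.39 (SE 0.13) did not pass (edgeR adjusted p = 0.108). It passed in 5 of 17 alternatives, among them DESeq2 (adjusted p = 0.0155) and a fit of these 8 libraries alone (edgeR adjusted p = 0.00634). Against WT Ctr the P635L Tnpo3 level differed by -0.22 (edgeR adjusted p = 0.411), and WT Tnpo3 libraries, at 11370 to 15360 CPM, differed by -0.08 (edgeR adjusted p = 1). Ccdc63 shares 60 exonic bases with Myl2 on the other strand and was at 0.283 to 4.78 CPM.

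Mylk3, the kinase of the regulatory light chain, was also lower in P635L Ctr. Mylk3 (ENSMUSG00000031698, chromosome 8, 86050932 to 86112974, minus strand, GRCm39) was at 509, 540, 688 and 695 CPM in WT Ctr. It was at 371, 408, 463 and 467 CPM in P635L Ctr, below every WT Ctr library. The log2 fold change was -0.51 (SE 0.13, edgeR adjusted p = 0.0107), and it no longer passed without P635L Ctr replicate 1 (-0.43, edgeR adjusted p = 0.0554) or with library totals less ENSMUSG00000119584 (-0.38, edgeR adjusted p = 0.0736). P635L Tnpo3 libraries, at 504, 501, 456 and 393 CPM, overlapped P635L Ctr and lay below WT Ctr. Their log2 fold changes were 0.12 against P635L Ctr (edgeR adjusted p = 0.691) and -0.39 against WT Ctr (edgeR adjusted p = 0.106). The WT Tnpo3 libraries, at 549 to 616 CPM, lay within the WT Ctr range (log2 fold change -0.05, edgeR adjusted p = 1).

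Myl4, the atrial and embryonic essential light chain, stayed low. Myl4 (ENSMUSG00000061086, chromosome 11, 104441489 to 104486579, plus strand, GRCm39) was at 4.56, 8.46, 3.02 and 2.78 CPM in WT Ctr and at 7.99, 8.62, 5.27 and 5.39 CPM in P635L Ctr. The groups overlap through WT Ctr replicate 2, and the log2 fold change of 0.55 (SE 0.32) did not pass (edgeR adjusted p = 0.279). Without that library it was 1.01 (edgeR adjusted p = 0.0288). P635L Tnpo3 libraries, at 4.74, 3.66, 2.94 and 5.10 CPM, lay below those of P635L Ctr, with a log2 fold change of -0.73 that did not pass (edgeR adjusted p = 0.222). A fit of these 8 libraries alone gave -0.74 (edgeR adjusted p = 0.0369). WT Tnpo3 libraries were at 4.61, 2.60, 2.60 and 2.28 CPM (log2 fold change -0.63, edgeR adjusted p = 1). Per kilobase of exon, the WT Ctr level of Myl4 was 1.01 CPM against 4777 CPM for Myl3, and the P635L Ctr level was 1.47 against 1820 CPM. The ventricular essential light chain therefore remained far more abundant than the atrial one.

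Of the 8 members, 1 was called higher and 4 lower in P635L Ctr than in WT Ctr, where 14.2% of all genes tested were called (7.07% higher, 7.14% lower). Between P635L Tnpo3 and P635L Ctr, 1 was higher (Myl3) and 1 lower (Mybpc2), against 3.88% of all genes (1.63% higher, 2.25% lower). Between P635L Tnpo3 and WT Ctr, 1 was higher (Mybpc2) and 1 lower (Mybphl), against 3.07% of all genes (1.49% higher, 1.58% lower). Between the WT groups 0 members were called, 0 had an unadjusted p under 0.05 with edgeR and 0 were called by DESeq2, against 0.00536% of all genes. The interaction of virus and genotype was called for 1 member (Myl3), against 0.504% of all genes. Because the members were selected on such results, these counts are not read against the background. The median log2 fold change of the 7 tested members was -0.51 in P635L Ctr against WT Ctr, beside -0.05 over all genes tested.

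**Figure D3:**
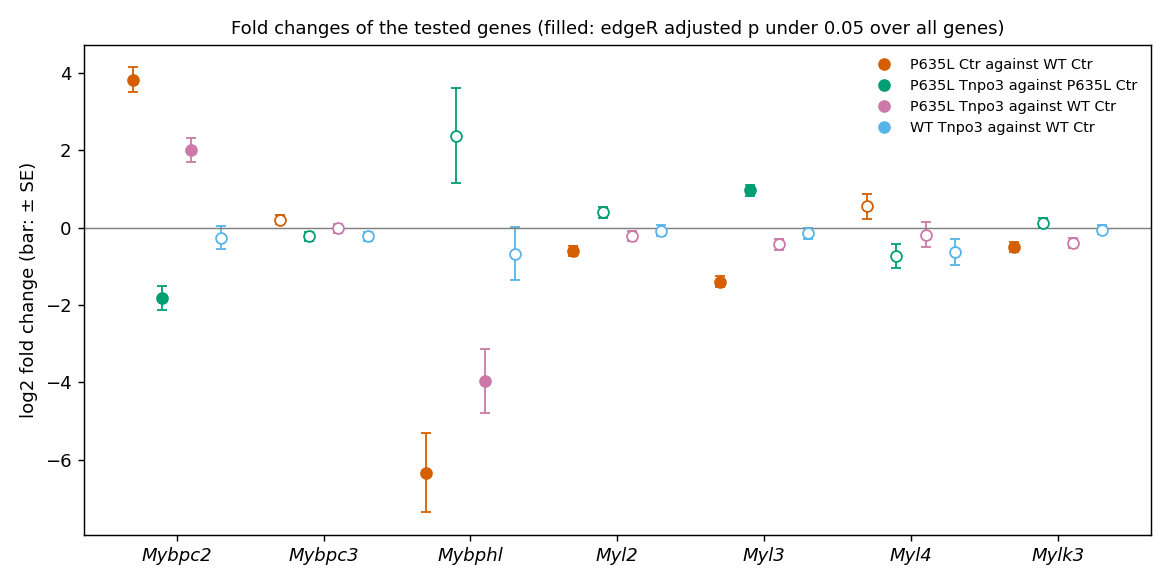
Fitted log2 fold changes (y axis) with their SE for the 7 tested genes (x axis) in 4 comparisons of groups of 4 libraries, with filled points at an edgeR adjusted p under 0.05 over all genes. Mybpc2 is the only member called higher in P635L Ctr (3.83), and Myl3 is the only member called higher with the Tnpo3 virus in P635L hearts (0.97).

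In the authors' deposited tables of DESeq2 results, signs were taken to run as WT Ctr over the other group. That reading came from the data: 98.5% (P635L Ctr) and 96.5% (P635L Tnpo3) of tested genes were opposite in sign to the edgeR fit. The authors' deposited table against P635L Ctr gives a log2 fold change of -3.84 for Mybpc2, 1.38 for Myl3, 0.59 for Myl2, 0.50 for Mylk3 and 6.74 for Mybphl. Those are the same 5 members in the same directions as above once the sign is turned. Since the sign was set by that fit and the counts are the same, this is not separate evidence. The authors' deposited table against P635L Tnpo3 gives -2.03 for Mybpc2 and 4.04 for Mybphl, and 0.40 for Myl3 with an adjusted p of 0.0725.

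Other genes of the thick filament were described from a list of 19 genes, 18 of them tested. In P635L Ctr against WT Ctr, 5 were called higher (Myl1, Myom3, Myl6b, Myl12a and Myom1) and those called lower included Myh7b, Myh7 and Myh6, with a median log2 fold change of 0.11 beside -0.05 over all genes. Myl1, the fast skeletal essential light chain, had a mean of 40.2 ± 14.3 CPM in WT Ctr, of 392 ± 9.03 CPM in P635L Ctr and of 117 ± 94.3 CPM in P635L Tnpo3 (SD, n = 4 per group). Without P635L Tnpo3 replicate 4, which was also the highest of its group in Myl1, that mean was 70.0 ± 7.02 CPM (SD, n = 3). Myl3 and Myl1, essential light chains of different muscle types, thus moved in opposite directions with the mutation. Myom3, an M-band protein, went from 4.40 ± 0.20 to 20.4 ± 3.07 CPM between the same control-virus groups (SD, n = 4 per group). Between P635L Tnpo3 and P635L Ctr, Myh7 and Myh7b were higher and Myl1, Myom3 and Myl6b lower, with a median of -0.13 beside 0.01 over all genes. Over all genes tested, 14.2% were called in P635L Ctr against WT Ctr and 3.88% in P635L Tnpo3 against P635L Ctr.

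A list of 20 enzymes that act on light chains or on binding protein C was tested in full. In P635L Ctr against WT Ctr, 2 were called higher (Mylk2 and Prkcd) and those called lower included Mylk4, with a median log2 fold change of -0.10 beside -0.05 over all genes. Mylk4, a myosin light chain kinase family member, was at 125 ± 65.8 CPM in WT Ctr, 11.4 ± 2.58 CPM in P635L Ctr and 42.0 ± 16.1 CPM in P635L Tnpo3 (SD, n = 4 each). Mylk2, the skeletal muscle light chain kinase, was at 0.0588 ± 0.0355 CPM in WT Ctr, 2.79 ± 0.415 CPM in P635L Ctr and 1.04 ± 0.728 CPM in P635L Tnpo3 (SD, n = 4 each). Mylk2 passed the filter on low counts through the P635L libraries, where it was high, so its call is a description only. With the Tnpo3 virus in P635L hearts, 1 of the 20 was called, Mylk4, which was higher. The shares over all genes tested were 14.2% for P635L Ctr against WT Ctr and 3.88% for the virus in P635L hearts.

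Mybpc2 is a fast skeletal gene, so genes of fast fibres were set beside it. Of 15 listed, 11 were tested, and in P635L Ctr against WT Ctr 5 were called higher (Casq1, Tnnt3, Myl1, Tnni2 and Ryr1) and 2 lower (Cacna1s and Eno3), with a median log2 fold change of 0.67 beside -0.05 over all genes. The fast myosin heavy chains did not share this: Myh1, Myh2 and Myh4 had at most 14, 9 and 2 counts in any library, and Tnnc2, fast skeletal troponin C, had at most 1. The summed level of 10 skeletal fibre markers, most of it Ckm, was 1145 to 1512 CPM in WT Ctr, 864 to 1498 CPM in WT Tnpo3, 549 to 851 CPM in P635L Ctr and 815 to 1174 CPM in P635L Tnpo3. Ckm is also a main creatine kinase of the heart. Without Ckm, a sum set after the values were seen, the other 9 markers reached 5.10 to 6.84 CPM in WT Ctr, 3.46 to 6.003 CPM in WT Tnpo3, 25.1 to 37.3 CPM in P635L Ctr and 14.7 to 24.7 CPM in P635L Tnpo3, mostly from Tnnt3 and Tnni2 in the P635L groups. That sum was thus highest where Mybpc2 was highest, no marker was at 0 in all libraries, and the part of skeletal fibres in the Mybpc2 result was not tested. With the Tnpo3 virus in P635L hearts, 3 of the 11 were called, all lower (Casq1, Tnnt3 and Myl1). Of all genes tested, 14.2% were called in P635L Ctr against WT Ctr and 3.88% with the virus in P635L hearts.

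Markers of other cell types were summed in the same way, without a test. The summed level of 5 fibroblast markers was 783 to 1337 CPM in WT Ctr, 941 to 1061 CPM in WT Tnpo3, 1273 to 1901 CPM in P635L Ctr and 912 to 1477 CPM in P635L Tnpo3. The P635L Ctr and WT Ctr ranges of the sum overlap, but single markers differed. Mean levels in WT Ctr and P635L Ctr were 156 and 307 CPM for Col1a1 and 464 and 849 CPM for Dcn. They were 33.7 and 70.1 CPM for Pdgfra, 38.8 and 155 CPM for Postn, and 290 and 345 CPM for Col3a1. Col1a1 and Dcn were called higher (edgeR adjusted p = 0.00879 and 0.000569), and Col3a1 was not (edgeR adjusted p = 0.546). Endothelial markers (4 genes) summed to 1737 to 2049 CPM in WT Ctr and 1643 to 1870 CPM in P635L Ctr, smooth muscle markers (3 genes) to 129 to 205 and 122 to 184 CPM, and immune markers (5 genes) to 26.8 to 109 and 22.6 to 35.2 CPM, all with overlap. No marker of these lists was at 0 in all libraries, and the part of these cells in the levels of Mybpc2 was not tested. The ventricular markers summed to 57180 to 67310 CPM in WT Ctr, 44730 to 66240 CPM in WT Tnpo3, 41230 to 44990 CPM in P635L Ctr and 40770 to 50490 CPM in P635L Tnpo3. Myl2, Myl3 and Mylk3 fell in P635L Ctr together with that sum, whereas Mybpc3 did not. Within the sum, mean Myh6 went from 27150 to 17420 CPM and mean Tnni3 from 8880 to 5051 CPM. Mean Irx4 rose from 43.4 to 52.1 CPM, and the other markers had lower means. In P635L Tnpo3 the range of the sum overlapped that of P635L Ctr, whereas Myl3 lay above every P635L Ctr library. The part of the cell mix in these levels was not tested. Slow skeletal or fetal genes, 6 of 6 tested, had 1 called higher and 2 lower in P635L Ctr against WT Ctr, with a median log2 fold change of 0.20. Atrial genes, 6 of 10 tested, had 2 called higher and 2 lower, with a median of -0.07. Over all genes tested, 7.07% were called higher and 7.14% lower in that comparison, with a median of -0.05.

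The genes whose pattern over the 16 libraries was most like that of Mybpc2 were found by the root mean square difference of centred log2 CPM among 12393 genes. Tnnt3, fast skeletal troponin T, was nearest at 0.298, where the spread of Mybpc2 itself was 1.68. Tnnt3 was at 1.08 ± 0.239 CPM in WT Ctr, 10.8 ± 1.30 CPM in P635L Ctr and 3.45 ± 1.75 CPM in P635L Tnpo3 (SD, n = 4 each). Myl1 followed at 0.55, then Adamtsl2 at 0.594, Fzd2 at 0.622 and Gm12295 at 0.625. For the other members the nearest genes were Myom1 for Mybpc3 (0.09), Kbtbd3 for Myl2 (0.078), Pxmp2 for Myl3 (0.136), Lmo7 for Mylk3 (0.111), Mllt11 for Myl4 (0.284) and Cenpf for Mybphl (0.674). A member that varies little, such as Mybpc3 with a spread of 0.193, lies near many genes by this measure.

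**Figure D4:**
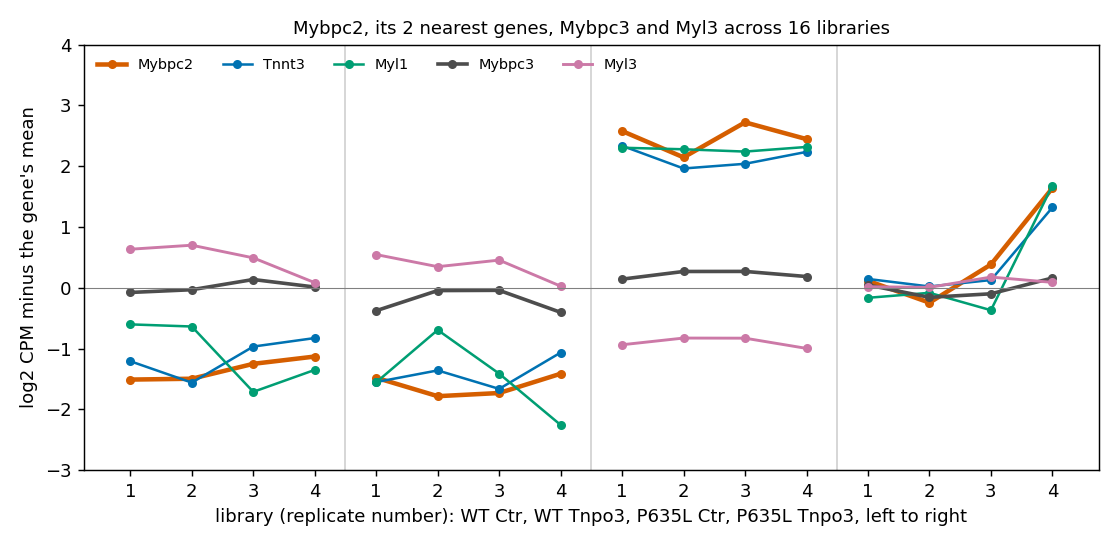
Centred log2 CPM (y axis) of Mybpc2, its 2 nearest genes Tnnt3 and Myl1, and of Mybpc3 and Myl3 in the 16 libraries (x axis, 4 replicates per group, lines join the libraries of a group and carry no order). Mybpc2, Tnnt3 and Myl1 are highest in P635L Ctr and, within P635L Tnpo3, highest in replicate 4, while Myl3 is lowest in P635L Ctr and Mybpc3 stays near 0.

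RBM20 acts on splicing, so the splicing events of the members were examined in the authors' rMATS tables against WT Ctr. Events were called where inclusion differed by 0.1 or more, the FDR was under 0.05 and each group averaged 10 or more junction reads. Inclusion runs from 0 to 1 and is the share of the form with the exon, or of the longer form. For mutually exclusive exons it is the share of the form with a given exon against the form with its alternative. In each case rMATS has scaled the junction reads by the length of each form. The members had 49 events in P635L Ctr, 43 in P635L Tnpo3 and 37 in WT Tnpo3, of which 45, 39 and 35 had enough reads. The members had 0, 0 and 0 called events, against 2.52%, 2.12% and 0.941% of all events with enough reads. At an unadjusted rMATS p under 0.05 there were 0, 0 and 2 member events. Over all genes there were 4898 of 34810, 4506 of 34636 and 3061 of 31883 events with enough reads. Mybpc1 and Mybphl had no event in any table.

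The largest inclusion difference of any member event with enough reads was 0.034 in size for P635L Ctr and 0.037 for P635L Tnpo3. Both belong to Mybpc3. Mybpc2 had 3 skipped-exon events, all in the P635L Ctr table, and they differed by at most 0.003 in size. One of them, an exon of 118 bases on chromosome 7 from 44171099 to 44171216 (GRCm39), was included at 1.0 in every WT Ctr library and at 0.997 ± 0.0053 in P635L Ctr (SD, n = 4). Mybpc2 thus rose in level while the inclusion of these 3 exons stayed at or near 1.0. Myl2 had 20 events with enough reads in that table, with differences of at most 0.015, Myl3 had 5 with at most 0.013 and Mylk3 had 4 with at most 0.003. In P635L Tnpo3 a mutually exclusive exon event of Myl3 was at 0.362 ± 0.0089 in WT Ctr and 0.338 ± 0.0129 in P635L Tnpo3 (SD, n = 4 each, rMATS FDR 0.474), from a mean of 142095 junction reads per WT Ctr library. The skipped-exon event of the same exon gave an inclusion that rounds to 1.0 in every library of both groups. At most 8 reads in any library left the exon out.

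**Figure D5:**
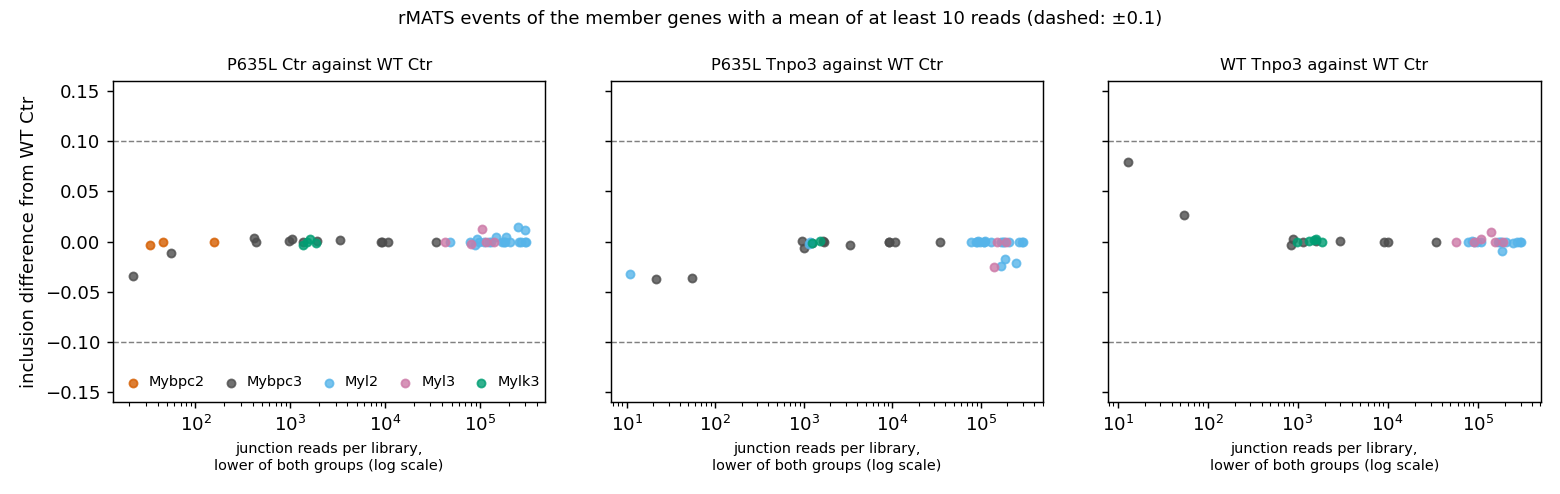
Inclusion difference from WT Ctr (y axis) against the mean junction reads per library in the group with fewer (x axis, log scale) for member events with a mean of at least 10 reads, in 3 comparisons. All points lie within the dashed lines at 0.1, and the points farthest from 0 have few reads, such as the Mybpc3 event at 0.079 in WT Tnpo3.

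The Mybpc3 events that stood farthest from 0 concern a 3-base exon, exon 10 of the transcripts Mybpc3-201 and Mybpc3-203. The 3 forms below, from GENCODE M21 transcripts (GRCm38), are shown because they place the short exon and both forms of the exon after it. Each line starts with the 24 bases before the short exon or its junction, and the short exon is in capitals. The whole next exon (12 or 9 bases) and 24 further bases follow.
Mybpc3-203: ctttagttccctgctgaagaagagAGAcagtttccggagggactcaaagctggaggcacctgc
Mybpc3-201: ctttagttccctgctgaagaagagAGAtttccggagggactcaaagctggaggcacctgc
Mybpc3-202: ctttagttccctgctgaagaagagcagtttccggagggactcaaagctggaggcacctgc
Mybpc3-203 holds the short exon followed by a 12-base exon, Mybpc3-201 holds it followed by the 9-base form of that exon, and Mybpc3-202 skips it and joins the 54-base upstream exon to the 12-base exon. In the event with the 9-base form, the skipping reads join the 54-base exon straight to that form, a junction that none of these 3 sequences holds. The short exon lies on chromosome 2 at 90952685 to 90952687 in the files (GRCm39).

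With the 12-base exon downstream, the short exon was included at 0.994 ± 0.0087 in WT Ctr, 0.995 ± 0.0029 in P635L Ctr, 0.995 ± 0.0051 in P635L Tnpo3 and 0.991 ± 0.0073 in WT Tnpo3 (SD, n = 4 each). The WT Ctr value rests on a mean of 979 junction reads per library. With the 9-base form downstream, WT Ctr libraries in their listed order were at 1.0, 1.0, 0.745 and 0.817, from a mean of 21.8 reads. P635L Ctr libraries were at 0.83, 0.881, 0.904 and 0.81, P635L Tnpo3 libraries at 0.953, 0.892, 0.953 and 0.615, and WT Tnpo3 libraries at 0.88, 1.0, 1.0 and 1.0. All 3 groups overlap WT Ctr. The difference of WT Tnpo3 from WT Ctr was 0.079 (rMATS FDR 0.0444), under the size needed for a call and from a mean of 13.0 reads per library in WT Tnpo3.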

How the data were processed

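Stranded libraries of polyadenylated RNA from 16 left ventricles were sequenced. The authors' deposited gene table holds raw read counts per gene, and the submitters' processing notes name STAR 2.7.9a, featureCounts 2.0.6, DESeq2 and GRCm39. The authors' deposited DESeq2 tables hold log2 fold changes and p-values, and their deposited rMATS tables, per the file headers, hold junction read counts, inclusion levels as fractions, inclusion differences (used here as a score with a sign) and p-values with FDR. Sources used here do not state the strand setting, or the order of libraries in the rMATS tables.

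The members and gene lists were chosen with earlier results of these data known. All 8 members are named in each comparison, and in the other lists the called genes are named, except some that are not reported here. Symbols came from the splicing tables for 11276 genes and from a name table for 40786, and 4891 had none. Counts were fitted with edgeR 4.0.16 in R 4.3.3 (quasi-likelihood, robust, TMM, filterByExpr, 1 mean per group, 12 residual degrees of freedom). P-values are two-sided with Benjamini-Hochberg adjustment over 18662 genes, called under 0.05. Levels per length use the exonic length in the count table. The log2 ratio of Mybpc2 to Mybpc3 used a pseudocount of 0.5. Likeness used genes whose mean log2 CPM reached 1. Totals of counts per library limit the precision, and intervals cover counting error only. Alternatives were other scalings, filters, DESeq2 1.42.0, a replicate block and sets of libraries left out. RefSeq promoters matched all 8 members, with 10 windows, by symbol.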

Additional observations from a re-analysis of the deposited data

Results flagged for a closer look

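In 4 of 36 groups of 4 values, 1 library stood apart from the other 3 by more than Dixon's 95% limit, where chance gives about 1 in 20. Myl2 in WT Ctr replicate 4 was at 11370 CPM, below 15130 to 15550 CPM in the other WT Ctr libraries. That library is also 1 of the 3 rich in ENSMUSG00000119584 and 1 of the 3 with high Xist. Myl2 in P635L Tnpo3 replicate 3 was at 13680 CPM, above 11690 to 11990 CPM in the others of its group. Myl4 in WT Tnpo3 replicate 1 was at 4.61 CPM, above 2.28 to 2.60 CPM. Mybphl in P635L Ctr replicate 1, at 0.02304 CPM, is a single count beside 3 libraries with 0.

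The effect of the Tnpo3 virus on Myl3 differed between P635L and WT hearts by 1.11 on the log2 scale (edgeR adjusted p = 0.0128 for the interaction), and over 24 alternatives the adjusted p ranged from 5.53e-06 to 0.0468. All 4 P635L Tnpo3 libraries were above all 4 P635L Ctr libraries, while WT Tnpo3 overlapped WT Ctr.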

How the results depend on the processing

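Of 825 values under alternative settings, 760 stayed the same by rules that differ with the kind of value. Single genes had to keep their direction and their side of the threshold. Counts had to stay within a set ratio of the main count. The log2 ratio of Mybpc2 to Mybpc3 had to keep its direction and stay within the pooled SD of its main value. The 32 that turned direction were differences near 0 that passed no test, and the smallest adjusted p among them was 0.56. The number of members called fell from 5 to 3 in P635L Ctr against WT Ctr and from 2 to 1 in P635L Tnpo3 against P635L Ctr when fold changes of 1 or more (log2, either direction) were required, which removes smaller changes by construction. With the 8 libraries of a comparison alone it rose from 2 to 4 in P635L Tnpo3 against P635L Ctr, and the cause was not tested. Against WT Ctr it fell from 2 to 1, because Mybphl did not pass the filter on low counts in those libraries and had no test there. Leaving out 1 library gave 1 to 3 members in P635L Tnpo3 against WT Ctr, with 1 left without P635L Tnpo3 replicate 2 or 4, and 1 to 2 for the interaction. The interaction count was 2 with DESeq2 (Mybpc2 called) and 2 with the replicate block (Mybpc2 -1.70, edgeR adjusted p = 0.0373). The labels do not say that a replicate number marks a shared litter or batch, and not every pair of same-numbered libraries correlated above 0.1, so the numbers were not taken as pairs. Correlations of same-numbered libraries ran from 0.096 to 0.552 between the WT groups and from -0.058 to 0.141 between the P635L groups, where 5 of 8 and 4 of 8 libraries correlated best with their own number. The block left 5, 2, 2 and 0 members called in the 4 comparisons of groups.

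Mybpc3 in P635L Tnpo3 against WT Ctr, at -0.02, turned to 0.031 with upper-quartile factors, 0.128 with library totals less ENSMUSG00000119584, 0.025 with no filter, 0.019 without the libraries with high Xist and 0.014 with 8 libraries, and ran from -0.08 to 0.062 with 1 library left out. Its interaction was 0.011 with upper-quartile factors and ran from -0.07 to 0.05 with 1 library left out. Myl4 in P635L Tnpo3 against WT Ctr was 0.162 without the 3 libraries rich in ENSMUSG00000119584 and ran from -0.372 to 0.28 with 1 library left out, and its interaction from -0.576 to 0.168. In WT Tnpo3 against WT Ctr, without the libraries with high Xist, Myl2 was 0.002, Mylk3 was 0.006 and the log2 ratio of Mybpc2 to Mybpc3 was 0.031. With 1 library left out these ran from -0.171 to 0.001, from -0.123 to 0.021 and from -0.154 to 0.089. The count of splicing events called in WT Tnpo3 was 1 at a difference of at least 0.05, and 0 to 1 with 1 listed library left out. Depth limits Mybpc1 and Mybphl, with 13 to 22 and 1 to 72 counts per group.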
